A study of Mus musculus with 36 samples.

Results

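The genes described here encode the proteins of the cytosolic ribosome. Members were chosen by name: every row of the deposited table whose symbol is Rpl, Rps or Rplp followed by digits and at most 1 of the letters a, x or l, together with Rpsa and Rps3a1. This gave 82 of 16439 genes, and 80 of them passed the filter on low values that 11656 genes passed in all. Those 80 were 33 genes of the 40S subunit, 44 of the 60S subunit and 3 of the 60S stalk. The other members, Rpl3l and Rpl39l, lay under the filter and entered no test. Ribosomal protein genes named in another way, such as Fau and Rack1, are not members and were read as a list of their own.

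Ribosomal proteins and ribosomal RNA form the small (40S) subunit, which reads the mRNA, and the large (60S) subunit, which joins the amino acids. Most of the proteins are needed in equal numbers, and ribosomal protein mRNAs are among the most abundant of a cell. Many of these mRNAs begin with a run of pyrimidines, the TOP start, through which the kinase mTORC1 and the RNA-binding protein Larp1 adjust their translation and stability. Macrophages answer lipopolysaccharide (LPS), a component of bacterial walls, with a large burst of transcription through Toll-like receptor 4, and new proteins then have to be made on these ribosomes.

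The libraries came from mouse bone marrow-derived macrophages, which had been cultured for 7 days with 10% fetal calf serum and, in the same RPMI medium, 10% supernatant of L929 cells, a source of the growth factor M-CSF, on plates to which cells do not adhere. Cells carried the D310N form of Tnip2 or were wild type (WT), and in each genotype they were unstimulated (0 min) or had received 100 ng/ml LPS for 30, 60, 120, 240 or 360 min. Tnip2 encodes ABIN-2, a ubiquitin-binding partner of the kinase Tpl2. Each of the 12 groups held 3 libraries. The labels do not say how the D310N allele was made or whether the 3 libraries of a group came from separate animals, so the p-values measure the spread between these libraries, which may be technical. A single amino acid change cannot be seen in gene-level values, so the genotype labels were not checked.

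All 10 macrophage markers were tested. Lyz2, the highest, lay between 16.8 and 17.2 on the log2 scale, and Mertk, the lowest, between 8.94 and 11.5. The median of all tested genes in a library reached at most 8.57. Of the markers of other cells, 0 of 8 lymphocyte, 0 of 8 erythroid, 1 of 6 stromal, 2 of 10 granulocyte and monocyte precursor and 3 of 5 dendritic cell genes passed the filter. Only 7 of the 8 lymphocyte, 4 of the 8 erythroid and 9 of the 10 precursor genes have a row in the deposited table. Read depth is unknown because only normalised values are in the table. A few libraries stood apart over all genes. The 3 WT libraries at 360 min deviated most from their group mean, with a residual SD of 0.246, 0.177 and 0.157 for replicates 1 to 3, against at most 0.128 in any other library. The ribosomal RNA precursor Rn45s was highest in D310N 30 min replicate 3 (18.89 log2) and WT 30 min replicate 3 (19.30), and Pira1 reached 18.98 in D310N 60 min replicate 3. In an alternative chosen after seeing the data, 4 of these libraries were left out together: WT 360 min replicate 1, WT 30 min replicate 3, D310N 30 min replicate 3 and D310N 60 min replicate 3.

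The start sites of named members are shown first, because the TOP start is the feature for which these mRNAs are best known. Each line gives 15 bases before and 15 bases from the annotated transcription start, from RefSeq on GRCm38.p6, with an unbroken pyrimidine run that opens the transcript in capitals. The first 5 begin with C and at least 4 more pyrimidines, and the last 2, from the abundant member with the largest LPS rise and from one that was lower late in D310N, do not at this annotated base.
Rpl32l: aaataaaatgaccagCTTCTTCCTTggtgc
Rps6: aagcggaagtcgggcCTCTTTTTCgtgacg
Rplp2: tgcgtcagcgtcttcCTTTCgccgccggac
Rps27: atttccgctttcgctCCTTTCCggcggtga
Rpl35: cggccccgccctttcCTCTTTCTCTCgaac
Rpl24: agaaagctgttgctaggaaacagactgggc
Rpl13a: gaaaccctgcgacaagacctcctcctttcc
These windows lie at chr10:20208424-20208453 on the plus strand for Rpl32l, chr4:86857353-86857382 on the minus strand for Rps6 and chr7:141447636-141447665 on the plus strand for Rplp2. They lie at chr3:90213634-90213663 (minus) for Rps27, chr2:39005117-39005146 (minus) for Rpl35, chr16:55966260-55966289 (plus) for Rpl24 and chr7:45128731-45128760 (minus) for Rpl13a.

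Of the 82 members, 61 matched an entry of the RefSeq promoter table by symbol. By the annotated starts, 14 of the 61 (23%) had a TOP start, defined as C followed by at least 4 pyrimidines, against 813 of 27025 genes (3.01%). A match at another base is not counted, and a start annotated a few bases away from the true one is missed. In the window of 250 bases before and 50 bases from the start, on either strand, the Ets-family core CCGGAAG was found in 26 members (42.6%), against 9.93% of all genes. The YY1-type motif AAGATGGC was found in 5 members (8.2%, against 3.19% of genes), and the E-box CACGTG in 6 (9.84%, against 8.09%). The end of CCGGAAG can overlap the start of AAGATGGC. These are matches of letters and not measured binding.

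The members lie on 19 chromosomes, and 2 of them, Rpl32l and Rps4l, are annotated as processed pseudogenes. Ribosomal protein genes have many such copies, so the share of each member's 75-base windows that occurs in no other annotated transcript was computed. It had a median of 69.1%, was under 50% for 25 members and was 100% for 4. The lowest share, 10.8%, was that of Rpl35. How the authors' counting divided shared reads is not known gene by gene, so levels of such members are uncertain. At 240 min of LPS the 25 members under 50% had a median log2 difference of 0.13 in D310N and 0.23 in WT, and the other 55 tested members 0.12 and 0.20. For D310N minus WT, averaged over the times, the medians were 0.079 for the first and 0.048 for the second. The classes were not compared by a test.

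Per kb of exon, and on the linear normalised scale, the stalk protein gene Rplp1 was the most abundant member at 0 min, with a mean of 20748 in D310N and 18672 in WT. It was followed by Rpl10, whose protein joins the 60S subunit last, with 15158 in D310N and 14222 in WT, and by Rps12 with 14150 in D310N and 12504 in WT. Among tested members the lowest were Rps27 (25.6 in D310N and 63.8 in WT, or 28.3 without WT replicate 2), Rpl32l (29.4 and 26.3) and Rps4l (42.2 and 56.8). The muscle paralog of Rpl3, Rpl3l, stood at 0.406 in D310N and 0.423 in WT per kb. Rpl39l, the germ cell paralog of Rpl39, stood at 2.84 in D310N and 4.27 in WT.

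Taken as 1 pool, the members made up 3.66% to 3.78% of the summed linear signal in unstimulated D310N libraries and 3.36% to 3.54% in unstimulated WT libraries. In D310N the mean share was 3.71% ± 0.06 at 0 min, 3.38% ± 0.15 at 30 min, 3.19% ± 0.13 at 60 min, 3.23% ± 0.15 at 120 min, 2.76% ± 0.05 at 240 min and 2.61% ± 0.06 at 360 min (SD, n = 3 each). In WT it was 3.47% ± 0.10, 3.14% ± 0.19, 3.20% ± 0.03, 3.11% ± 0.15, 2.65% ± 0.06 and 2.57% ± 0.16 at the same times. In both genotypes every library at 240 and 360 min lay below every library at 0 to 120 min of its genotype. The groups of D310N and WT did not overlap at 0 min and 240 min, and they overlapped at the other times. The share is a sum dominated by the most abundant members and was not tested.

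The share and the level of the typical member moved apart. The median log2 value over the 80 members averaged 12.64 in D310N at 0 min, 12.56 at 30, 12.58 at 60, 12.70 at 120, 12.70 at 240 and 12.63 at 360 min. In WT it averaged 12.52, 12.44, 12.60, 12.66, 12.69 and 12.62 at these times. Over the same period the summed linear signal of all genes grew: its mean at 240 min was 1.45 times that at 0 min in D310N and 1.51 times in WT. The deposited values therefore give a rise per gene and a fall as a share of the whole. In bulk RNA, fewer cells of a type and less RNA per cell cannot be told apart, and no value here counts ribosomal protein mRNA per cell.

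**Figure D1:**
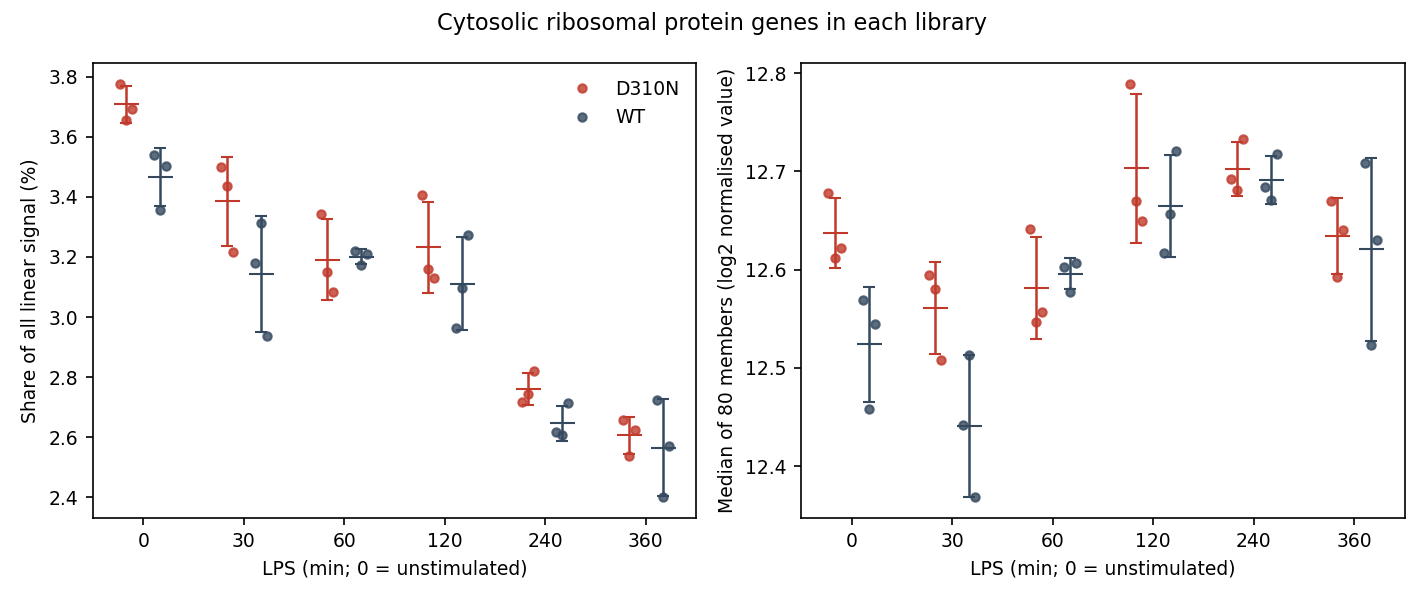
Each point is 1 library, D310N in red and WT in blue; bars give the mean ± SD of 3 libraries. Left, the summed share of the members in all linear signal (%), which fell to a mean of 2.61% in D310N and 2.57% in WT at 360 min, against 3.71% and 3.47% at 0 min; right, the median log2 value of the 80 tested members, which stood at 12.70 in D310N and 12.69 in WT at 240 min, against 12.64 and 12.52 at 0 min.

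On the deposited scale, ribosomal protein genes that passed the test under LPS were mostly higher, by small amounts, and this direction turns round when libraries are scaled to the sum of all other genes or quantile normalised. Called rises covered most members at 240 min in D310N and at 120, 240 and 360 min in WT. At 60 min in both genotypes and at 120 min in D310N the share of members that rose was close to or under that of all tested genes. At 30 min 0 members were called in either genotype, where 5.16% of all tested genes rose and 1.48% fell in D310N, and 4.79% rose and 1.3% fell in WT. At an unadjusted p under 0.05, 0 members were higher and 3 lower in D310N at 30 min, and 0 higher and 10 lower in WT. Of the 11656 tested genes, 1229 were higher and 584 lower by that p in D310N, and 1244 and 715 in WT. At 60 min 2 of 80 members rose in D310N (21.3% of all tested genes rose), and 17 of 80 in WT (20.1% of all tested genes). At 120 min 26 members rose in D310N, against a background of 31.9%, and 56 in WT, against 32.4%. At 240 min the counts were 43 in D310N, with 39% of all tested genes higher, and 63 in WT, with 39.6% higher. None fell between 60 and 240 min in either genotype on this scale, where 17.2%, 32.1% and 40.2% of all tested genes fell in D310N at the 3 times and 17.1%, 34.2% and 40.4% in WT. At an unadjusted p under 0.05, 2 members were lower in D310N at 60 min and 0 at the other of these times and in WT. By that p 2383, 3935 and 4756 of the 11656 tested genes were lower in D310N at the 3 times and 2359, 4144 and 4778 in WT.

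The changes were small beside the spread of changes over all tested genes. At 240 min the quartiles of that spread were -0.49 and 0.44 in D310N and -0.53 and 0.47 in WT. The median difference over the members was 0.12 in D310N and 0.21 in WT at 240 min, while the median over all tested genes was -0.02 in both. The 2 subunits were not compared by a test. In WT 24 of 33 genes of the 40S and 39 of 47 of the 60S with its stalk rose at 240 min, with medians of 0.21 and 0.20. In D310N 17 of 33 and 26 of 47 rose at 240 min, with medians of 0.12 and 0.12. At 120 min 5 of 33 genes of the 40S and 21 of 47 of the 60S rose in D310N, with medians of 0.09 and 0.11, and 23 and 33 in WT. All 43 members that rose in D310N at 240 min were among the 63 that rose in WT, 100% of the first list and 68.3% of the second.

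**Figure D2:**
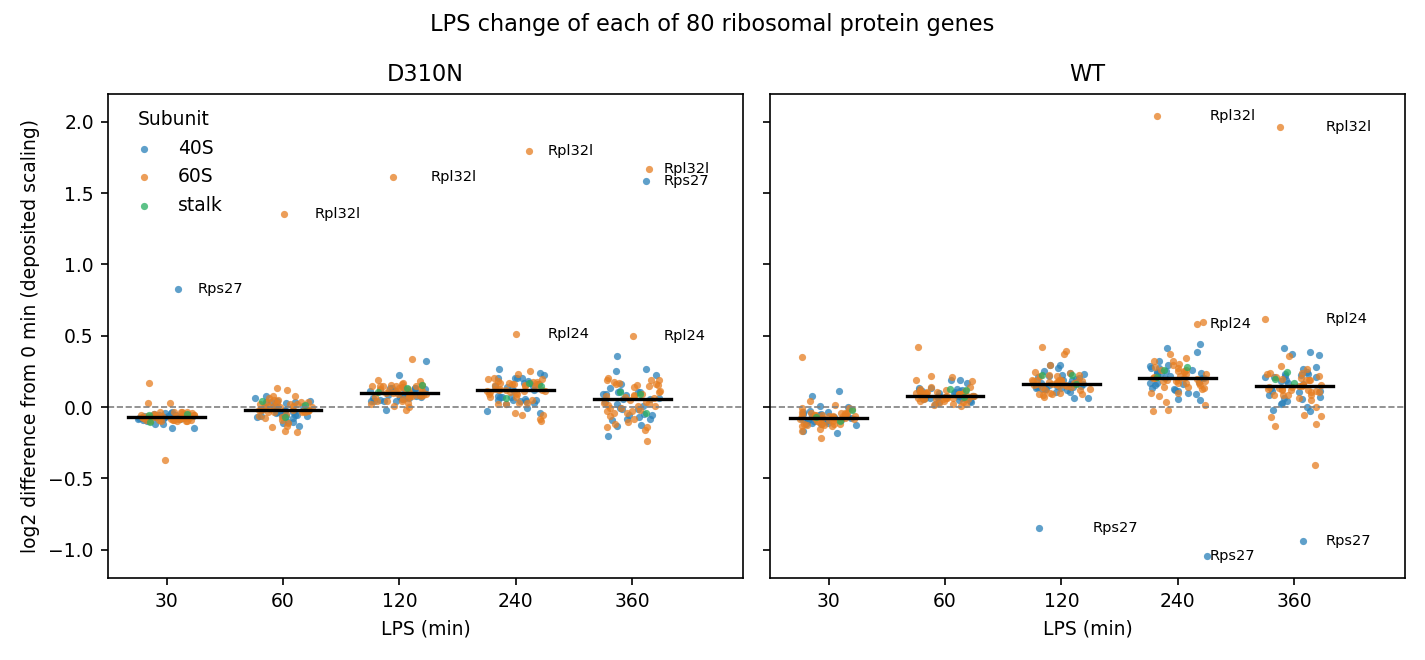
Each point is 1 of 80 members, placed at its log2 difference between an LPS time and 0 min on the deposited scale, D310N left and WT right; black bars give the median of the members. Medians at 240 min were 0.12 in D310N and 0.21 in WT, and became -0.43 and -0.40 when libraries were scaled to the sum of all other genes; Rpl32l, Rpl24 and Rps27 lie apart from the rest.

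Comparing each time with the one before it placed the rise on the deposited scale, the only scale on which these steps were tested. With libraries scaled to the sum of all other genes, the D310N median against 0 min was -0.14 at 30 min and -0.23 at 60 min. In WT it was -0.15 and -0.13. After quantile normalisation these medians were -0.15 and -0.27 in D310N and -0.15 and -0.19 in WT. From 30 to 60 min 7 members rose in D310N, where 17% of all tested genes did, and 56 in WT, where 17.4% did. From 60 to 120 min 35 rose in D310N (27.8% of all tested genes) and 17 in WT (26%). From 120 to 240 min 3 rose and 2 fell in D310N, and 12 rose and 1 fell in WT, with 31.2% higher and 31.9% lower among all tested genes in D310N and 33.5% and 30.7% in WT. From 240 to 360 min 1 rose and 7 fell in D310N (18.6% and 20.3% of all tested genes), and 0 rose and 3 fell in WT (12.3% and 14%). At 360 min against 0 min, 23 members rose and 7 fell in D310N, and 48 rose and 1 fell in WT. Background shares at that time were 39% higher and 41% lower in D310N, and 39.3% higher and 41% lower in WT.

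The counts were higher in WT than in D310N at each time from 60 min, and the difference itself was tested gene by gene. The LPS response of D310N minus that of WT passed for 0 of 80 members at 30, 60, 240 and 360 min and for 1, Rpl32l, at 120 min. All tested genes passed in 0%, 0.0686%, 0.935%, 1.95% and 2.01% at the 5 times in order. At an unadjusted p under 0.05 the D310N response was higher for 0, 1, 1, 0 and 1 members and lower for 0, 6, 7, 6 and 16. Of the 11656 tested genes it was higher for 54, 179, 594, 901 and 925 and lower for 54, 160, 397, 773 and 747. The member medians of this difference were 0.00, -0.10, -0.07, -0.10 and -0.11, and those of all tested genes 0.00, 0.01, 0.01, 0.00 and 0.00. The difference was negative for 37, 79, 73, 78 and 77 of the 80 members. Among all tested genes it was negative for 5656, 5458, 5299, 5816 and 5794. All of these values rest on the same 0 min libraries. The different number of calls thus is not shown to be a different response of any single member, apart from Rpl32l. The shift of the members as a set was not tested. Single libraries move some counts, for which the share of all tested genes was not computed. Without WT 60 min replicate 3 the rises in WT at 60 min numbered 7, without replicate 2 they numbered 9, and without WT 0 min replicate 2 or 3 they numbered 11. Without D310N 120 min replicate 1 the rises in D310N at 120 min numbered 12.

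The scaling between libraries decided the sign. With a trimmed mean, 44 members in D310N and 66 in WT rose at 240 min and 0 fell, and with equal medians of all tested genes 45 and 70 rose. Of all tested genes, 39.8% in D310N and 40.6% in WT rose with the trimmed mean, and 40.1% and 42.1% with equal medians. With libraries scaled to the sum of all genes that are not members, 1 rose and 75 fell in D310N at 240 min and 1 rose and 74 fell in WT, where 72.8% of all tested genes fell in D310N and 74.1% in WT. That scaling moved the median of all tested genes to -0.57 in D310N and -0.62 in WT. Relative to that median, the members' median was 0.14 higher in D310N and 0.22 higher in WT, the same distance as on the deposited scale, since this scaling only shifts each library. Quantile normalisation gave 3 rises and 74 falls in D310N at 240 min, and 3 and 73 in WT, where 45.2% of all tested genes fell in D310N and 45% in WT. Relative to the median of all tested genes the members' median was -0.45 in D310N and -0.46 in WT. Which scaling is closest to RNA per cell was not tested.

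**Figure D3:**
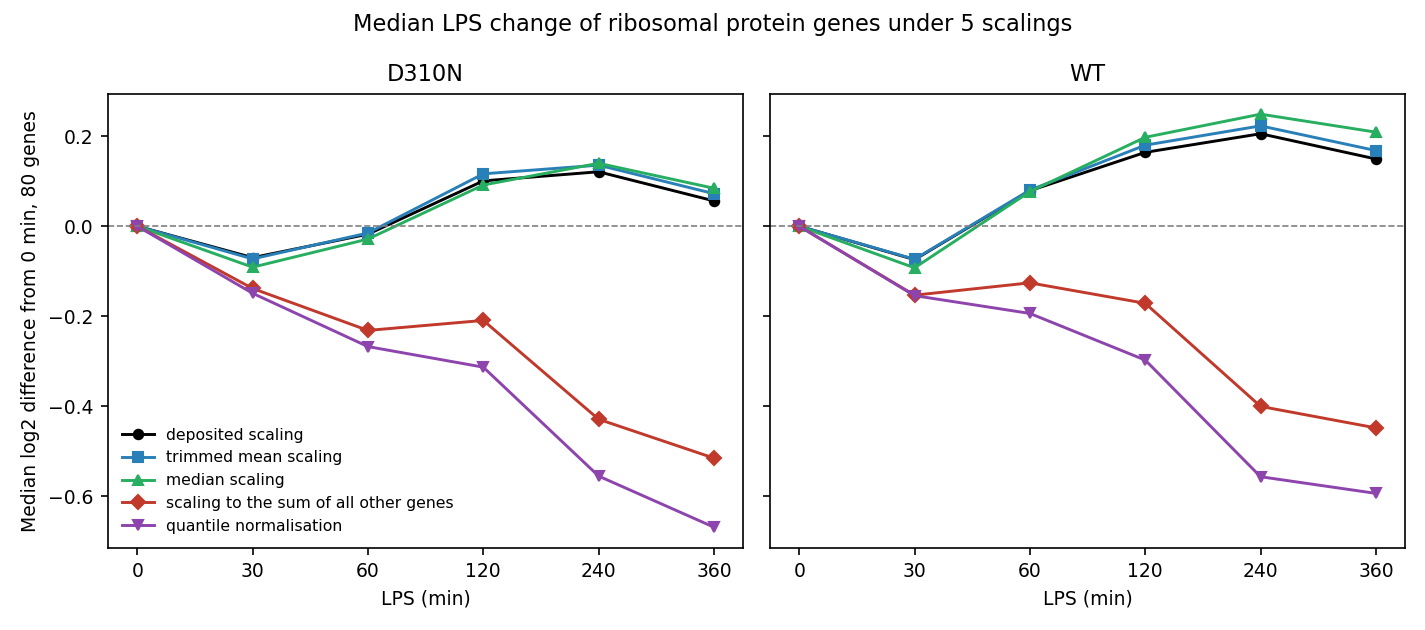
The vertical axis gives the median log2 difference from 0 min over 80 members, the horizontal axis the minutes of LPS, and each line 1 scaling of the libraries; D310N left, WT right. At 240 min the deposited, trimmed mean and median scalings lie at 0.12 to 0.14 in D310N and 0.21 to 0.25 in WT, and scaling to the sum of all other genes and quantile normalisation lie at -0.43 and -0.56 in D310N and at -0.40 and -0.56 in WT.

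Rpl24 rose most among the members of ordinary abundance. Its protein lies at the face of the 60S that meets the 40S. In D310N it stood at 12.46, 12.38 and 12.47 log2 at 240 min, against 11.97, 11.88 and 11.94 at 0 min. In WT it stood at 12.34, 12.34 and 12.40 at 240 min, against 11.84, 11.74 and 11.74 at 0 min. All libraries at 240 min lay above all libraries at 0 min. The difference was 0.51 ± 0.04 in D310N (SE, 1.42-fold) and 0.58 ± 0.04 in WT (1.5-fold, adjusted p = 4.54e-14), and at 360 min 0.50 in D310N and 0.62 in WT. The gene lies at chr16:55966275-55971435 on the plus strand (mm10), and only 19.1% of its windows are its own, so its value is uncertain as to source. When libraries were scaled to the sum of all other genes its WT difference at 240 min was -0.02, and -0.12 after quantile normalisation.

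Rps20 and Rps24 of the 40S were also among the largest rises in WT at 240 min. Rps20, of the 40S head, rose by 0.21 in D310N and by 0.41 ± 0.07 in WT. Rps24, which is mutated in some patients with Diamond-Blackfan anaemia, stood at 13.47, 13.45 and 13.58 in D310N at 240 min, against 13.30, 13.22 and 13.26 at 0 min. Its WT libraries held 13.45, 13.47 and 13.52, against 13.12, 13.06 and 13.11. Its differences were 0.24 in D310N and 0.39 ± 0.05 in WT at 240 min, and 0.36 and 0.41 at 360 min. Rpl27 of the 60S was among the largest rises in D310N, by 0.25 ± 0.05, with 0.34 in WT. Under both scalings that turned the family, Rps20 and Rps24 were negative in WT at 240 min and Rpl27 was negative in D310N.

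The 3 stalk proteins form the arm of the 60S that draws in elongation factors. Rplp0, its base, stood at 14.28, 14.32 and 14.28 log2 in D310N at 240 min, against 14.15, 14.15 and 14.12 at 0 min. WT held 14.27, 14.30 and 14.34, against 14.08, 14.02 and 14.04. It rose in both genotypes, by 0.15 in D310N (adjusted p = 0.00194) and by 0.26 in WT (adjusted p = 1.45e-06). Rplp2 also rose in both, by 0.17 in D310N and 0.28 in WT. Rplp1 rose in WT (0.21, adjusted p = 0.00174), and its D310N difference of 0.06 did not pass (adjusted p = 0.321). The WT differences of all 3 were negative under both scalings that turned the family.

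Several members have known work outside the ribosome. Rps6, the phosphorylated target of S6 kinase, rose by 0.16 in D310N and 0.27 in WT at 240 min. Rpl5 and Rpl11, which with 5S ribosomal RNA bind Mdm2, differed by 0.16 and 0.03 in D310N and by 0.23 and 0.14 in WT, and of these 4 only Rpl11 in D310N failed the test (adjusted p = 0.613). Rps3a1 rose by 0.20 in D310N and 0.24 in WT. Rps3, which binds the NF-kB subunit p65 in human cells, rose in WT (0.13, adjusted p = 0.0113) and in D310N differed by 0.08 (adjusted p = 0.11). Rps19, the gene most often mutated in Diamond-Blackfan anaemia, rose in WT by 0.17, with 0.04 in D310N. Rps27a, made as a fusion with ubiquitin, rose in WT by 0.17 (adjusted p = 0.000279), with 0.05 in D310N (adjusted p = 0.268). The WT rises of Rps19 and Rpl11 were lost without WT 0 min replicate 2 (adjusted p = 0.103 and 0.112) or WT 240 min replicate 3 (0.0707 and 0.0518), and that of Rps3 without WT 0 min replicate 1 (0.0534). Each of these WT rises turned negative under both scalings that turned the family.

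By 360 min some members were called lower than unstimulated on the deposited scale, as were 41% of all tested genes in each genotype. In D310N these members were Rpl13a, Rpsa, Rpl3, Rpl10a, Rps2, Rpl22 and Rpl12, and in WT Rpl3 alone. The difference between the LPS responses at 360 min passed for 0 of 80 members. With equal medians of all tested genes 3 fell in D310N and 0 in WT (39.5% and 37.5% of all tested genes). Scaled to the sum of all other genes 76 fell in each genotype (72.8% and 73.5%), and after quantile normalisation 74 and 73 (44.7% in both). Rpl13a, which in human monocytes leaves the ribosome to silence inflammatory mRNAs, stood at 12.48, 12.38 and 12.45 log2 in D310N at 360 min, against 12.68, 12.66 and 12.66 at 0 min. The groups did not overlap and differed by -0.24 ± 0.06 (adjusted p = 0.001). In WT Rpl13a held 12.60, 12.27 and 12.44 at 360 min, against 12.61, 12.46 and 12.64 at 0 min, which overlap (-0.13, adjusted p = 0.0524).

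Rpsa, the 40S protein also known as the laminin receptor, fell in D310N by 0.20 ± 0.04 on the log2 scale. It stood at 13.62, 13.62 and 13.67 at 360 min, against 13.86, 13.83 and 13.82 at 0 min. In WT its difference was -0.02. Rpl3, whose protein reaches into the peptidyl transferase centre, held 13.25, 13.30 and 13.33 in D310N at 360 min, against 13.46, 13.45 and 13.44, a difference of -0.16. In WT Rpl3 held 13.34, 13.18 and 13.22, against 13.36, 13.37 and 13.38, a difference of -0.12 ± 0.03 (adjusted p = 0.00175). With equal medians of all tested genes the WT difference was -0.061 (adjusted p = 0.105), with only the libraries compared it did not pass (adjusted p = 0.0872), and without WT 360 min replicate 1 it was -0.17. All libraries at 360 min lay below those at 0 min in both genotypes. Rpl10a of the L1 stalk and Rps2 at the mRNA entry each differed by -0.14 in D310N, Rpl22 by -0.12 and Rpl12 of the stalk base by -0.10. Without D310N 0 min replicate 1, Rpl13a, Rpl3 and Rpsa were the 3 falls still called in D310N, and without D310N 360 min replicate 2 these and Rpl22. The fall of Rpl10a was also lost with a trimmed mean (adjusted p = 0.0522).

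To read the members against each other, the libraries were also set to the same median over the members, an alternative chosen after seeing the data. The members did not move as 1 block. At 240 min 24 then rose and 6 fell in D310N, and 23 rose and 7 fell in WT, where 76.4% and 78.8% of all tested genes were called in either direction. At 360 min 29 rose and 11 fell in D310N, and 27 rose and 8 fell in WT, with 77.1% and 78.1% of all tested genes called. Rpl24 stood 0.44 above the other members in D310N and 0.42 in WT at 240 min. Rpl13a stood at -0.16 in D310N and -0.19 in WT, and Rpl3 at -0.11 and -0.20. Over the 36 libraries, the profile nearest to the median of the members was that of Rpl11 (Pearson r = 0.963), then Rplp1 (0.954) and Rps13 (0.946). The farthest were Rps27 (-0.382), Rps4l (0.114) and Rpl26 (0.277). These libraries share groups and scaling, so r is only a description.

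On the deposited scale, ribosomal protein genes were higher in D310N than in WT macrophages before LPS and at 30 min of LPS. At 0 min 21 of 80 members were higher and 0 lower in D310N, where 3.64% of all tested genes were higher and 7.09% lower. At an unadjusted p under 0.05, 1 member was lower, as were 1549 of the 11656 tested genes. The groups did not overlap, with D310N higher, for 57 members, as for 13.6% of all tested genes. At 30 min 24 were higher and 0 lower (4.43% and 7.78% of all tested genes), and 48 did not overlap (14.7%). The median difference was 0.13 at 0 min and 0.12 at 30 min. The D310N libraries at 0 min also enter the D310N response to LPS above.

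After 30 min few members passed. At 60 min Rps4x and Rpl32l were higher in D310N and 0 members lower (4.89% and 7.96% of all tested genes). At 120 min 7 were higher and 0 lower (7.94% and 9.72%). By limma's unadjusted p under 0.05, 1 member was lower at each of these 2 times, as were 1636 and 1753 of the 11656 tested genes. At 240 min Rpl36a was higher, a call lost without any of 11 of the 36 libraries, and Rps4l lower (6.98% and 10% of all tested genes), and at 360 min Rpl26 was higher and Rps4l lower (6.8% and 9.52%). The medians at these times were 0.02, 0.05, 0.03 and 0.02. Whether the difference at 0 min exceeds that at the later times is the test of the LPS response above. By limma's adjusted p 0 members passed with a smaller difference at a later time than at 0 min, with the unadjusted counts given there, and Rpl32l passed with a larger one at 120 min.

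On average over the 6 times, 48 members were higher and 2 lower in D310N, against 22.7% and 25.4% of all tested genes. The averaged test treats all libraries of a genotype as independent. If same-numbered libraries of different times share a culture, which the labels do not say, its p-values are too small. The replicate block tried as an alternative was shared by both genotypes and does not account for this. The calls are given by subunit next. They were 15 higher and 1 lower of 33 genes of the 40S, and 33 higher and 1 lower of 47 of the 60S and its stalk. The median was 0.06, and that of all tested genes -0.00. The same counts were 41 and 2 when libraries were scaled to the sum of all other genes and after quantile normalisation. Of all tested genes, 21.9% were higher and 24.9% lower under the first and 27.5% and 21.9% under the second. The direction on average thus held. After quantile normalisation the members' median lay 0.034 above that of all tested genes, against 0.062 on the deposited scale. At 60 min it then lay at -0.011 relative to that of all tested genes. With the members' median set equal in all libraries, 25 were higher and 4 lower, where 43.9% of all tested genes were called in either direction.

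**Figure D4:**
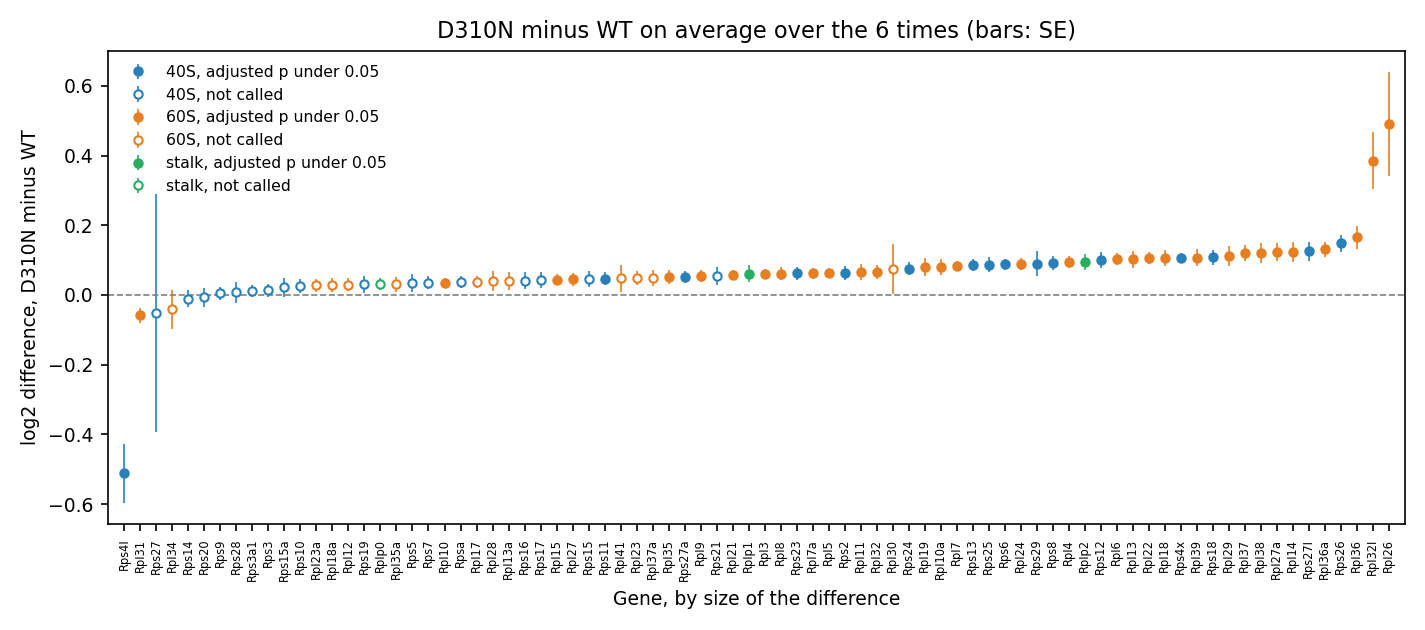
Each point is the log2 difference of D310N minus WT for 1 member, averaged over the 6 times, with its SE as a bar; filled points passed at an adjusted p under 0.05. Most members lie a little above 0, with 48 called higher and 2, Rps4l and Rpl31, called lower; Rpl26 (0.49) and Rpl32l (0.39) lie highest.

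Rps26, whose protein touches the mRNA in the exit channel, is typical of the members with the clearest shift. It stood at 12.14, 11.98 and 12.05 log2 in D310N at 0 min, against 11.93, 11.71 and 11.87 in WT. Each D310N library lay above each WT library, by 0.22 ± 0.06 on average, and the difference over the 6 times was 0.15 ± 0.02 (adjusted p = 5.94e-06). Among the members called at 0 min, the next were Rpl27a (0.21), Rpl37 (0.20), Rps18 (0.19) and Rpl36a (0.19). Rpl26 (0.60, adjusted p = 0.359) and Rpl36 (0.24, adjusted p = 0.0526) had larger differences that did not pass. Averaged over the times, Rpl36 differed by 0.17 ± 0.03 (means of 11.10 in D310N and 10.94 in WT) and Rpl36a by 0.13 ± 0.02 (11.44 and 11.31). Rps4x, the X-linked copy that supplies most Rps4 protein, had a difference of 0.11 ± 0.01 (adjusted p = 3.16e-07) and passed at each time up to 120 min, at 60 min not without any of 5 single libraries. It held 13.53, 13.49 and 13.52 in D310N at 0 min, against 13.38, 13.39 and 13.37 in WT. Rpl31, at the exit of the peptide tunnel, was lower by a small amount, -0.06 ± 0.02 (adjusted p = 0.0176), and did not pass with equal medians of all tested genes (adjusted p = 0.0738).

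Other members named for their work showed the same order of size. Averaged over the times, D310N was higher for Rps6 (0.09), Rpl11 (0.07), Rpl5 (0.06), Rplp2 (0.10), Rplp1 (0.06), Rps27a (0.05), Rpl39 (0.11), Rpl10 (0.04) and Rpl3 (0.06). Rplp0 (0.03, adjusted p = 0.151), Rpsa (0.04, adjusted p = 0.0703), Rpl13a (0.04), Rps19 (0.03), Rps3 (0.01) and Rps3a1 (0.01) did not pass. The call of Rplp1 was lost without any of 18 single libraries (adjusted p between 0.0506 and 0.082), without a filter (0.0551) and when scaled to the sum of all other genes (0.0695). That of Rpl10 was lost under scaling to the sum (adjusted p = 0.0582) and quantile normalisation (0.204), and that of Rpl11 under quantile normalisation (0.107). Under equal medians of the members Rpl10 turned to -0.01, and Rplp1, Rps27a, Rpl5, Rpl11 and Rpl3 did not pass.

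The calls at 0 and 30 min depend on single libraries and on the scaling. At 0 min the 21 calls became 1 without D310N replicate 1, 9 without D310N replicate 3, 4 without WT replicate 2 and 8 without WT replicate 3. At 30 min the 24 calls became 3 without D310N replicate 1, 6 without WT replicate 1 and 1 without WT replicate 3. Leaving out the 4 libraries named above gave 34 calls at 0 min and 6 at 30 min. The medians moved less: leaving out any 1 library kept them between 0.10 and 0.14 at 0 min and between 0.09 and 0.15 at 30 min. With libraries scaled to the sum of all other genes, 2 members passed as higher at 0 min and 10 at 30 min (2.62% and 3.42% of all tested genes). With the replicate number as a block 32 passed at 0 min. The share of all tested genes called was not computed for this block or with libraries left out.

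Other genes also differed between the genotypes. Of 25 cell cycle genes, 20 were lower in D310N at 0 min (median -0.74) and 0 higher. Of all tested genes, 7.09% were lower and 3.64% higher at that time. On average over the times 22 cell cycle genes were lower and 1 higher, against 25.4% and 22.7% of all tested genes. The summed level of the cell cycle genes lay between 13.86 and 14.73 log2 in D310N libraries and between 13.86 and 14.95 in WT libraries. Of 10 macrophage markers, 3 were higher and 7 lower on average, where 22.7% and 25.4% of all tested genes were. The part of either list in the ribosomal protein result was not tested.

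Rpl32l departed most from the family. Its values lie near the filter floor of 3.32 log2, with a mean of 4.42 over the 36 libraries. Low values may be shrunk by the transformation, which is not known, so its folds are uncertain. It is annotated as a processed pseudogene of Rpl32 at chr10:20208490-20208888 on the plus strand, inside Map7 on the same strand, and 86.8% of its windows are its own. At 0 min it held 3.63, 3.88 and 3.03 log2 in D310N, against 3.00, 3.69 and 3.42 in WT. The 60 min libraries held 5.05, 5.01 and 4.53 in D310N, against 3.53, 4.09 and 3.75 in WT. After 120 min the values were 4.96, 5.30 and 5.11 in D310N, against 4.05, 3.58 and 3.58 in WT, and after 240 min 5.33, 5.24 and 5.34 in D310N, against 5.46, 5.40 and 5.36 in WT. The genotypes overlapped at 0 min, separated fully at 60 and 120 min with D310N higher, and met again at 240 min, where every WT library stood slightly above every D310N library.

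D310N exceeded WT by 1.08 at 60 min (2.11-fold, adjusted p = 0.000309) and by 1.39 at 120 min (2.62-fold, adjusted p = 8.7e-06). By 240 min Rpl32l had risen 3.47-fold in D310N and 4.12-fold in WT. The step that passed in D310N was from 30 to 60 min (1.19, adjusted p = 1.68e-05), and in WT from 120 to 240 min (1.67, adjusted p = 1.42e-08). The difference between the LPS responses passed at 120 min (1.24 ± 0.29, adjusted p = 0.0243) and in the joint test over the 5 times (adjusted p = 0.000623), which no other member and 4.84% of all tested genes passed. The call at 120 min was lost, with adjusted p between 0.0551 and 0.109, without any of 7 libraries at 0 or 120 min (D310N 0 min replicate 3, D310N 120 min replicates 2 and 3, WT 0 min replicates 2 and 3, WT 120 min replicates 2 and 3), and the joint result was kept without each of the 36. It did not pass at 60 min (0.93, adjusted p = 0.756). The parent gene Rpl32 stood between 12.8 and 13.1 and differed between the genotypes by 0.03 at both times. Map7 lay between 3.51 and 4.75. Reads of unspliced or overlapping transcripts cannot be told apart from those of Rpl32l.

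Rps4l, a transcribed processed pseudogene related to Rps4x, ran the other way. It lies at chr6:148354656-148355598 on the plus strand inside Tmtc1, which is on the minus strand and near the floor of the table, and 93.3% of its windows are its own. At 360 min it held 4.97, 5.57 and 5.34 log2 in D310N, against 6.45, 5.83 and 6.10 in WT. At 0 min it held 4.91, 5.72 and 5.19 in D310N, against 5.83, 5.65 and 5.74 in WT. The groups did not overlap at 360 min and overlapped at 0 min through D310N replicate 2, which was the highest D310N library at every time. The difference of D310N from WT was -0.83 ± 0.21 at 360 min (adjusted p = 0.00568) and, averaged over the 6 times, -0.51 ± 0.08 (adjusted p = 8.36e-06), with D310N lower at 6 of 6 times. At 360 min the difference was -0.67 without WT 360 min replicate 1 (adjusted p = 0.032), and the call was lost without D310N 360 min replicate 1 (-0.67, adjusted p = 0.0555). The call at 240 min (-0.58, adjusted p = 0.0499) was lost without any of 24 of the 36 libraries.

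Rps27 and Rpl26 showed where the values themselves are unsteady. Rps27 lay between 3.5 and 4.5 in most libraries, but reached 6.30 in D310N 30 min replicate 2, 8.26 in D310N 360 min replicate 2, 6.36 in WT 0 min replicate 2, 7.46 in WT 30 min replicate 3 and 6.36 in WT 60 min replicate 2. Its near-identical copy Rps27rt stood between 11.35 and 12.05, and 57.6% of the windows of Rps27 are its own. In the fit over all libraries Rps27 passed none of the tests. With only the libraries compared its difference at 240 min of LPS in WT did (-1.04, adjusted p = 0.0272, against 0.252 over all libraries), although the groups overlap. Rps27l, its p53-inducible paralog, rose by 0.23 in D310N and 0.29 in WT at 240 min. Rpl26, which binds the 60S near the tunnel exit, averaged 8.20 in D310N and 7.71 in WT over the times, a difference of 0.49 ± 0.15 (adjusted p = 0.00752). At 360 min it held 7.92, 8.35 and 8.97 in D310N, against 5.69, 7.91 and 8.04 in WT, where replicate 1 lay far below the others. The difference at 360 min was 1.2 (adjusted p = 0.0232), and 0.44 without WT 360 min replicate 1 (adjusted p = 0.263). It was 0.93 without D310N 360 min replicate 3 (adjusted p = 0.143). The averaged difference was 0.36 without WT 360 min replicate 1 (adjusted p = 0.00272).

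**Figure D5:**
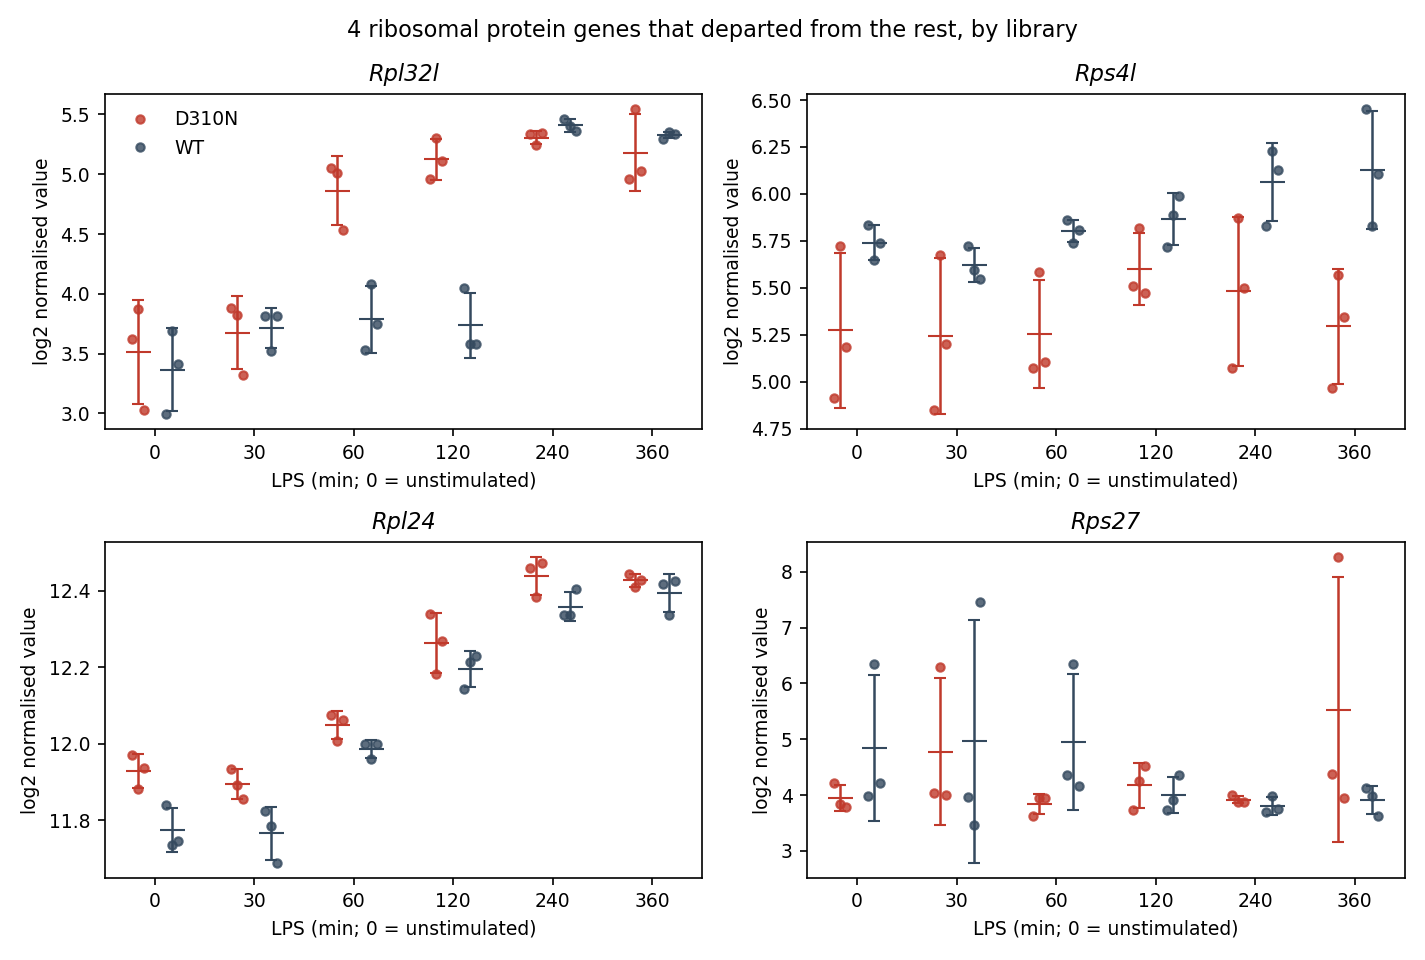
Log2 normalised values of Rpl32l, Rps4l, Rpl24 and Rps27 against minutes of LPS; each point is 1 library, D310N in red and WT in blue, and bars give the mean ± SD of 3 libraries. Rpl32l in D310N lies above WT at 60 and 120 min, Rps4l in D310N has the lower mean at all 6 times, Rpl24 rises in both genotypes on the deposited scale, and Rps27 has single libraries of up to 8.26.

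Members with a TOP start did not stand far from the others. At 240 min the 14 with an annotated TOP start had a median of 0.16 in D310N and 0.25 in WT, and the 45 tested members with another start 0.11 and 0.19. The averaged difference of D310N and WT was 0.05 for the first and 0.06 for the second. The first class includes Rpl32l and Rps27. A start annotated a few bases away is missed, so the second class can hold TOP mRNAs. The split therefore cannot show whether a TOP start goes with the LPS change.

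Other genes of translation were read as lists beside the members, on the deposited scale. Their counts at 240 min stand beside 39% higher and 40.2% lower over all tested genes in D310N, and 39.6% and 40.4% in WT. Of 7 ribosomal proteins named otherwise, 3 rose in D310N and 6 in WT at 240 min and 0 fell, among them Rpl22l1 (0.27 in WT) and Rack1 (0.27). Of 21 elongation and initiation factors with TOP mRNAs, 11 rose and 2 fell in D310N, and 16 rose and 2 fell in WT. The largest in WT were the poly(A)-binding Pabpc1 (0.70), Eif4b (-0.63), Hnrnpa1 (0.58) and Btf3 (0.52). Of 23 other initiation factors, 17 rose and 2 fell in D310N, and 16 rose and 3 fell in WT, with Eif1a at 1.38, Eif6 at 1.01, Eif4g2 at 0.99 and Eif2s1 at 0.79 in WT.

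Of 39 genes of biogenesis and rRNA processing, 19 rose and 11 fell in D310N at 240 min, and 16 rose and 12 fell in WT. Noc4l (1.61 in WT) and Wdr43 (1.54), both of the small-subunit processome, rose most. Of 14 genes of RNA polymerase I, 3 rose and 4 fell in D310N and 3 rose and 5 fell in WT, with the subunit Polr1b at -1.35 in WT. Of 20 chaperones and maturation factors, 12 rose and 4 fell in D310N and 10 rose and 6 fell in WT, led by Sbds, which helps to release Eif6 from the 60S (2.13 ± 0.04 in WT). Of 18 genes of quality control, 13 rose and 2 fell in D310N and 11 rose and 2 fell in WT, with Ascc3 at 1.23.

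Of 17 regulators of mTORC1 and TOP mRNAs, 6 rose and 9 fell in D310N and 5 rose and 10 fell in WT. Larp1 rose by 1.91 ± 0.04 in WT, and Eif4ebp2, an inhibitor of eIF4E, differed by -1.26. Of the 12 tested host genes of small nucleolar RNAs, which also carry TOP starts, 9 fell and 0 rose in D310N, and 8 fell and 0 rose in WT, with medians of -0.53 and -0.57. Of 77 mitochondrial ribosomal proteins, 27 rose and 22 fell in D310N and 36 rose and 18 fell in WT. Between the genotypes, averaged over the times, 28 biogenesis genes were higher in D310N and 0 lower, as were 15 and 0 of the other initiation factors and 16 and 1 of the TOP factors, against the background of 22.7% higher and 25.4% lower given above.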

How the data were processed

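RNA of 36 libraries was sequenced as single reads of 75 bases. Per the submitters' processing notes, STAR 2.5.2a, RSEM 1.2.31 and DESeq2 1.10.1 were used with mm10. The authors deposited normalised log2 values and no counts; how the log2 values were transformed is not given in the sources used here, and low values may be shrunk. The table writes the mutation as D309N, the titles as D310N.

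The members and gene lists were chosen with earlier results of these data known. Genes with at least 10 on the linear scale (3.32 log2) in at least 3 libraries were tested, and 23 date-like names were left out. limma 3.58.1 (R 4.3.3) was fitted to the deposited log2 values with 1 mean for each of the 12 groups, an intensity trend and 24 residual degrees of freedom. Tests were two-sided, with Benjamini-Hochberg adjustment over all 11656 tested genes. Calls needed an adjusted p below 0.05. The plan allowed for a linear table with a pseudocount, which the log2 values did not need. Sums and shares use the values brought back to the linear scale. The model was tested on simulated data.

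Named members are the 5 largest called changes at 240 and 360 min and between genotypes, members called in the joint test, stalk proteins, members with work outside the ribosome, paralogs, the most and least abundant per kb, and the profiles nearest to and farthest from the median. Rpl22, Rpl12, Rpl27a, Rpl37, Rps18 and Rpl35 were added after their values were seen. Up to 4 genes a list are named, and 1 member that the rule names is not reported here. Gene positions and windows are from GENCODE on GRCm38 (mm10), start sequences from RefSeq.

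Other scalings, pseudocounts, filters, library weights, a replicate block and leaving out libraries were tried. The main fit treated libraries as unpaired in every comparison, and the replicate block was an alternative only. Deviations of same-numbered libraries correlated above 0.1 in all 3 pairs for D310N at 120 against 0 min (0.325, 0.373 and 0.131). In the other D310N comparisons with 0 min all 3 correlations were positive, with the lowest between 0.037 and 0.0998. These correlations come from the data, and the labels do not state a pairing.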

Additional observations from a re-analysis of the deposited data

Results flagged for a closer look

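The LPS response of Rpl32l differed between the genotypes. Its level is low, with a mean of 4.42 log2 over the 36 libraries against a filter floor of 3.32. The joint test over the 5 times gave an adjusted p of 0.000623, and at 120 min the response in D310N exceeded that in WT by 1.24 on the log2 scale (adjusted p = 0.0243). D310N libraries held 4.96, 5.30 and 5.11 at 120 min, against 4.05, 3.58 and 3.58 in WT. The joint result held without any single library, with adjusted p between 0.000296 and 0.00246. The call at 120 min alone was lost when any of 7 libraries was left out: D310N 0 min replicate 3, D310N 120 min replicate 2 or 3, WT 0 min replicate 2 or 3 and WT 120 min replicate 2 or 3. Over all 36 libraries left out in turn, that difference lay between 1.00 and 1.43.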

How the results depend on the processing

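The LPS direction of the members rests on the scaling between libraries, and so do most calls that changed. Scaled to the sum of all other genes, members called lower under LPS numbered 4, 72, 70, 75 and 76 in D310N and 13, 27, 58, 74 and 76 in WT at 30 to 360 min, beside 4.2%, 55.3%, 66.1%, 72.8% and 72.8% of all tested genes in D310N and 6.97%, 52.7%, 68.2%, 74.1% and 73.5% in WT, and those called higher from 60 min on 1, 1, 1 and 1 in D310N and 0, 0, 1 and 1 in WT. After quantile normalisation the lower counts were 22, 74, 73, 74 and 74 in D310N and 33, 59, 70, 73 and 73 in WT, beside 4.38%, 29.8%, 40%, 45.2% and 44.7% of all tested genes in D310N and 5.32%, 29.4%, 40.3%, 45% and 44.7% in WT, and the higher counts 1, 2, 3 and 3 in D310N and 0, 2, 3 and 2 in WT. For D310N against WT, scaling to the sum gave 2, 10 and 1 higher at 0, 30 and 60 min and 2 higher and 0 lower at 240 min. Of all tested genes, 2.62%, 3.42%, 3.36% and 10.9% were higher at these times and 6.81% lower at 240 min. Quantile normalisation gave 10, 9, 1 and 3 higher at 0, 30, 60 and 240 min, beside 5.31%, 6%, 6.14% and 7.18% of all tested genes. The cause was not tested beyond the shifts given above.

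Differences at 240 min in WT that turned negative when scaled to the sum were Rpl24 (-0.021), Rps20 (-0.19), Rps24 (-0.22), Rplp0 (-0.34), Rplp1 (-0.39), Rplp2 (-0.32), Rps27a (-0.43), Rps3 (-0.48), Rpl5 (-0.37), Rpl11 (-0.46), Rps6 (-0.33), Rps19 (-0.44), Rpsa (-0.55), Rps3a1 (-0.36), Rps27l (-0.31), Rpl10 (-0.47), Rpl39 (-0.43) and Rps4x (-0.40), with Rpl27 in D310N (-0.30). At 360 min in WT they were Rps24 (-0.18) and Rps20 (-0.23). After quantile normalisation they were, in the same order at 240 min, -0.12, -0.34, -0.43, -0.66, -0.61, -0.44, -0.66, -0.69, -0.60, -0.66, -0.57, -0.57, -0.84, -0.60, -0.078, -0.75, -0.56, -0.65 and -0.37, and at 360 min Rpl24 (-0.10), Rps24 (-0.43) and Rps20 (-0.39).

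With the median of all tested genes set equal, members called lower numbered 1 at 60 and 3 at 360 min in D310N and 0 at 360 min in WT. Of all tested genes, 18.1%, 39.5% and 37.5% were lower there. D310N against WT gave 45 and 41 higher at 0 and 30 min (6.49% and 7.14% of all tested genes). It gave 1 lower at 120, 0 lower at 240 min and 1 lower on average (10.4%, 9.16% and 21.9%). With the median of the members set equal, a choice made after seeing the data, 6 and 24 rose in D310N at 120 and 240 min with 6 and 11 lower at 240 and 360 min. In WT 2, 8, 23 and 27 rose from 60 to 360 min with 7 and 8 lower at 240 and 360 min. D310N against WT then gave 0, 1, 1 and 3 higher at 0 to 120 min, 1 lower at 120 and 0 at 240 min, and 25 higher and 4 lower on average. Rps3 (-0.037), Rpl11 (-0.024), Rpsa (-0.11) and Rpl10 (-0.031) at 240 min in WT and Rpl10 (-0.011) between the genotypes turned negative.

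For the settings that follow, the share of all tested genes called was not computed. Their member counts therefore cannot be set apart from a change over all genes. Without a filter, D310N against WT gave 1 higher at 60 min and 0 higher and 0 lower at 240 min. With library weights, 1 and 4 members were lower at 30 and 60 min, 5 higher at 60 and 1 lower at 240 min in D310N. In WT 3 were lower at 30, 32 higher at 60 and 2 lower at 360 min. Weights gave 53, 55, 6, 8 and 3 higher in D310N than WT at 0, 30, 60, 240 and 360 min, 1 lower at 0, 30 and 60 min, and 4 in the joint test. With the libraries compared alone, 1 was lower at 60 and 240 min in D310N, 32 rose at 60 and 1 fell at 240 and 0 at 360 min in WT, and D310N against WT gave 32 higher at 0, 1 lower at 60, 2 higher at 120, 3 higher and 2 lower at 240 and 0 and 0 at 360 min.

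With the replicate number as a block, 1 member was lower at 60 min in D310N, 2 at 360 min in WT and 1 at 60 min in D310N against WT, and 32 were higher at 0 min in D310N than in WT. The block changed no other count by more than 1.5 times. Without the 4 libraries that stand apart, chosen after seeing the data, 1 was lower at 60 min in D310N and 2 at 360 min in WT. D310N against WT gave 34, 6, 1 and 3 higher at 0, 30, 60 and 360 min and 1 lower at 120 min, and 2 passed the joint test.

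Leaving out each library in turn gave, for members higher under LPS, 1 to 2, 12 to 33, 29 to 44 and 19 to 26 in D310N from 60 to 360 min and 7 to 20, 40 to 63, 49 to 65 and 36 to 64 in WT. Lower members numbered 0 to 4 at 60 and 3 to 8 at 360 min in D310N, and 0 to 1 at 30 and 1 to 3 at 360 min in WT. For D310N against WT the higher counts were 1 to 32, 1 to 31, 1 to 2, 1 to 9, 0 to 1 and 0 to 2 at 0 to 360 min and 42 to 59 on average. The lower counts were 0 to 1 at 0, 60, 120 and 240 min and 0 to 2 at 360 min, and the joint test gave 1 to 2. Pseudocounts of 0.5 and 8 changed no result, and the trimmed mean 1 among the named genes. Depth is unknown, so no limit on what could be detected is given.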
